A study of Homo sapiens with 6 samples.

Results

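The genes described here encode the enzymes that start the transfer of ubiquitin and its relatives: the E2 conjugating enzymes whose symbols begin with UBE2, and the E1 activating enzymes UBA1, UBA3, UBA6, SAE1 and NAE1. The choice was by symbol and used no measured value, although earlier results of these data were known. It drew on probe sets that the platform annotation pairs with exactly 1 gene. This gave 32 genes, 27 of them E2 and 5 of them E1, among 22465 genes with a single symbol. RNA had been measured on whole-transcript arrays in OV2008 cells. OV2008 is an established human line. The labels call it ovarian cancer, although other work has traced it to a cervical carcinoma line. The mimic group held 3 arrays of cells transfected with a miR-328-3p mimic, and the negative control group held 3 arrays of cells transfected with a negative control microRNA. All cells were harvested 3 days after transfection, and no untransfected cells were analysed here. The titles and source names of the 3 mimic samples name miR328, whereas their descriptions name the control microRNA, and the titles were followed. Whether the samples came from separate cultures is not stated, so every p-value covers just the spread between these arrays, which may be technical.

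Ubiquitin is first activated by an E1 enzyme, then passed to the active-site cysteine of an E2, and finally joined to a protein with the help of an E3 ligase, which selects the substrate. The E2 largely decides what kind of ubiquitin chain is built. A few E2 enzymes carry the related modifiers SUMO, NEDD8 or ISG15, each with its own E1, or FAT10, which shares UBA6 with ubiquitin. In dividing cancer cells these enzymes serve protein turnover, DNA repair and passage through mitosis.

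The transfected mimic carries the mature sequence below, shown because its seed, bases 2 to 8 in capitals, is the part that pairs with messenger RNAs. RefSeq places it on GRCh38.p14 at chr16:67202327-67202348, on the minus strand. A site that pairs with this seed reads AGGGCCA in a messenger RNA, and messenger RNA sequences of the E1 and E2 genes were not searched here.
hsa-miR-328-3p: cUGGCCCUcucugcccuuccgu

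Array medians lay between 4.14 and 4.17 in the mimic group and between 4.10 and 4.14 in the control group, on what is taken as a log2 scale. Arrays of 1 group correlated at 0.9953 to 0.9967, and arrays of different groups at 0.9925 to 0.9946. All 8 epithelial markers lay above the median of all probe sets, and 6 of them rose. The mean of that list ran from 11.2 to 11.3 in the mimic arrays and from 10.9 to 11.0 in the control arrays. Of 7 ovarian and Mullerian markers, 2 lay above the median. FOLR1 averaged 5.69 in mimic and 5.70 in control arrays, and PAX8 averaged 4.38 in mimic and 4.33 in control arrays. All 4 squamous epithelial markers with a probe set lay above the median, and the mean of that list ran from 12.7 to 12.8 in the mimic arrays and from 12.6 to 12.7 in the control arrays. Of these, SFN averaged 14.75 in mimic and 13.90 in control arrays and rose by 0.86. DSG3 averaged 13.72 in mimic and 14.59 in control arrays and fell by 0.88. KRT5 (16.995 in mimic, 17.03 in control) and the far dimmer KRT14 (5.45 in mimic, 5.14 in control) did not pass. The list means of fibroblast markers were 3.74 to 3.81 in mimic and 3.71 to 3.79 in control arrays. Of the leukocyte and endothelial markers, PTPRC averaged 3.44 and 3.41, and PECAM1 averaged 3.05 and 2.93, in mimic and in control arrays. CD68, which epithelial lines also express, was the leukocyte marker that rose (9.02 in mimic, 8.04 in control), and CDH5 was the endothelial marker that fell (4.80 in mimic, 5.48 in control). The part of these markers in the results below was not tested.

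Both E1 enzymes for ubiquitin and 5 E2 genes rose in the mimic arrays, and 4 E2 genes fell. UBE2A, UBE2R2, UBA1, UBE2B and UBA6 rose by 0.30 to 0.48 on the log2 scale, and UBE2H and UBE2G1 by 0.24 and 0.19. UBE2Q1 and UBE2D4 fell by 0.50 and 0.44, and UBE2G2 and UBE2J1 by 0.29 and 0.22. The largest of these changes was 1.41-fold. Of the 32 genes, 30 passed the filter on low signal, and the 11 that passed an adjusted p of 0.05 in limma's moderated test make 36.7% of the genes tested. Among all 14878 protein-coding genes tested, 20.9% passed. The 7 rises are 23.3% of the E1 and E2 genes tested against 8.15% of all genes, and the 4 falls are 13.3% against 12.8%. Among the 7668 genes at least as bright as the dimmest E1 or E2 gene tested, 14.3% rose and 22.6% fell. In bulk RNA, fewer cells of a type and less RNA per cell cannot be told apart. The median log2 fold change of the 30 genes was 0.09, beside 0.0024 over all protein-coding genes tested.

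Fewer genes were called whichever array was left out, in fits that hold fewer arrays. The mimic and control arrays did not overlap for 18 of the 30 genes, or 60%. Of these, 11 were higher and 7 lower in the mimic. Over all protein-coding genes tested, whatever their brightness, the share was 46.4%. Between 2 and 5 genes rose and between 1 and 3 fell when 1 array was left out. The counts were 3 and 3 without mimic array 1, 2 and 1 without mimic array 2, 4 and 3 without mimic array 3, 4 and 3 without control array 2, and 3 and 2 without control array 3. After median centring of every array, 4 genes rose and 5 fell, so that 44.4% of the called genes were higher in place of 63.6%. Over all probe sets that share was 31.4% in place of 41.7%. The calls of UBA1, UBE2R2 and UBE2Q1 were kept in each of the 13 alternative settings.

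**Figure D1:**
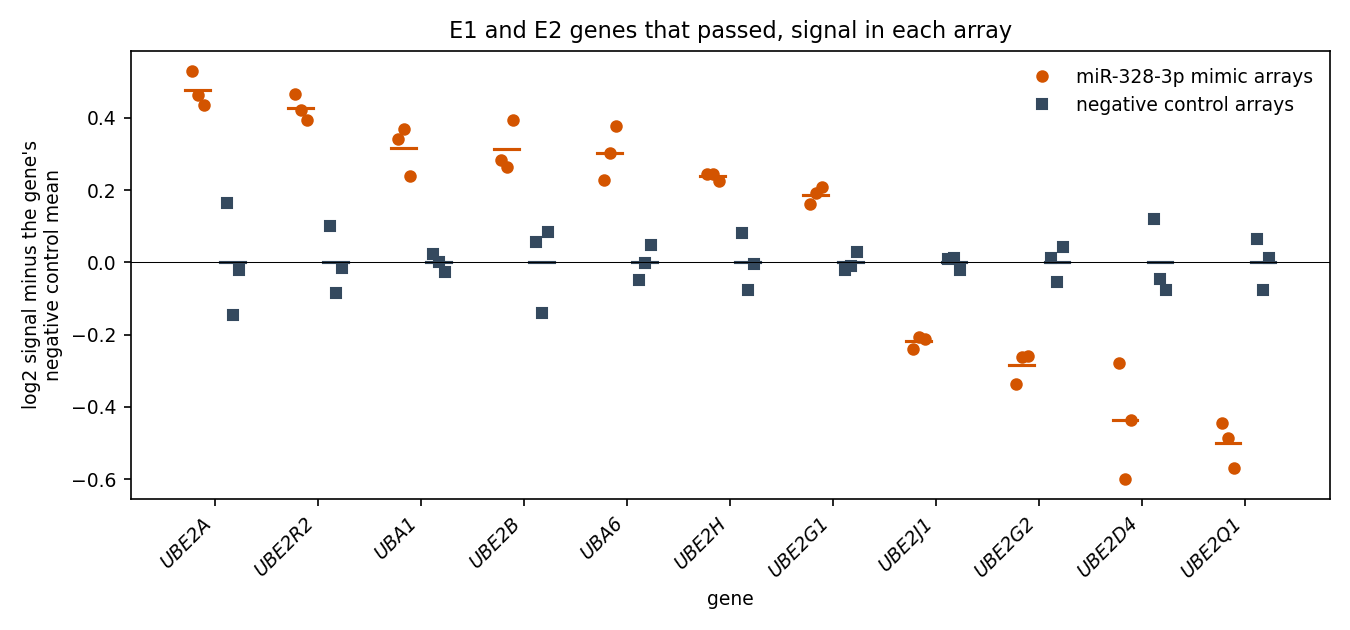
Log2 signal of the 11 genes that passed, in each of the 3 mimic arrays (circles, left of each pair) and the 3 control arrays (squares, right), after subtraction of the gene's control mean; horizontal bars are group means. The 7 genes on the left lie higher in every mimic array than in any control array, from UBE2A at 0.48 to UBE2G1 at 0.19, and the 4 on the right lie lower, down to UBE2Q1 at -0.50.

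The ubiquitin E1 enzymes rose by nearly equal amounts. UBA1, the main enzyme that activates ubiquitin, measured 10.89, 10.92 and 10.79 in the mimic arrays, against 10.58, 10.55 and 10.53 in the control arrays. The lowest mimic array lay above the highest control array, and the log2 fold change was 0.32 ± 0.048 SE, or 1.24-fold (limma adjusted p = 0.00818). UBA6, the other ubiquitin E1, which also activates FAT10, measured 12.76, 12.83 and 12.91 in the mimic arrays, against 12.48, 12.53 and 12.58 in the control arrays. These groups did not overlap either, and the log2 fold change was 0.30 ± 0.052 SE, or 1.23-fold (limma adjusted p = 0.013). The UBA6 value was 0.30 with an adjusted p of 0.0563 without mimic array 2.

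The E1 enzymes of other modifiers did not pass the test. SAE1, a subunit of the SUMO-activating dimer, measured 12.22, 12.18 and 12.04 in the mimic arrays and 11.9985, 12.06 and 11.88 in the control arrays. Its groups overlapped, and the difference was 0.17 (95% interval 0.0054 to 0.33, limma adjusted p = 0.192). UBA3, the catalytic subunit of the NEDD8-activating dimer, measured 12.05, 12.11 and 12.07 in mimic and 12.06, 11.95 and 12.02 in control arrays, a difference of 0.06 (95% interval -0.043 to 0.17). Its partner NAE1 measured 14.48, 14.49 and 14.40 in mimic and 14.45, 14.38 and 14.46 in control arrays, a difference of 0.03 (95% interval -0.076 to 0.13). The intervals of the NEDD8 pair include 0, and their upper ends lie below the change of either ubiquitin E1. UBA2, the partner of SAE1, was not analysed here.

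UBE2A and UBE2B, the human RAD6 enzymes, rose together. They attach ubiquitin to the replication clamp PCNA with RAD18, to histone H2B with RNF20 and RNF40, and to proteins with destabilising N-termini with the UBR ligases. UBE2A measured 10.71, 10.64 and 10.62 in the mimic arrays, against 10.34, 10.03 and 10.16 in the control arrays, with a log2 fold change of 0.48 ± 0.082 SE, or 1.39-fold (limma adjusted p = 0.0132). Its control arrays spread more widely (SD 0.156, n = 3) than its mimic arrays (SD 0.0476, n = 3). The adjusted p was 0.0553, 0.0518 and 0.0563 without mimic array 1, mimic array 2 and control array 3, at values of 0.45, 0.48 and 0.47. UBE2B measured 10.82, 10.80 and 10.93 in the mimic arrays, against 10.59, 10.39 and 10.62 in the control arrays (0.31 ± 0.073 SE, 1.24-fold, limma adjusted p = 0.0397). Control array 2 was the lowest of the 6 for both genes. UBE2B missed the threshold on removal of any 1 array. Its adjusted p was lowest, 0.0631, without control array 2 (value 0.24) and highest, 0.107, without mimic array 3 (value 0.27). Nor did it pass with each array centred on its median (0.27, adjusted p = 0.0946).

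UBE2T, the E2 of the Fanconi anaemia pathway, which works with the ligase FANCL, did not pass. It measured 11.85, 11.82 and 11.75 in mimic and 11.76, 11.72 and 11.62 in control arrays, a difference of 0.10 (95% interval -0.019 to 0.23). The cell cycle E2 genes did not pass either. UBE2C starts ubiquitin chains for the anaphase-promoting complex, APC/C, and measured 11.04, 10.95 and 10.92 in the mimic arrays and 11.08, 11.04 and 11.07 in the control arrays. The lowest control array lay just below the highest mimic array, and the difference was -0.09 (95% interval -0.20 to 0.019, limma adjusted p = 0.296).

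UBE2S, which extends the chains that UBE2C starts, had 2 probe sets. The brighter one, which stood for the gene by the rule, measured 10.00, 10.04 and 9.61 in mimic and 9.70, 9.74 and 9.83 in control arrays, a difference of 0.13 (95% interval -0.15 to 0.41). Mimic array 3 lay below all 3 control arrays. The identifier of this probe set names chromosome 17, whereas RefSeq places UBE2S on chromosome 19 and has 2 UBE2S pseudogenes on chromosome 17, so its value is uncertain. The probe set named for chromosome 19 measured 7.72, 7.76 and 7.86 in mimic and 7.69, 7.56 and 7.79 in control arrays, a difference of 0.10 (limma adjusted p = 0.51). Neither probe set passed.

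**Figure D2:**
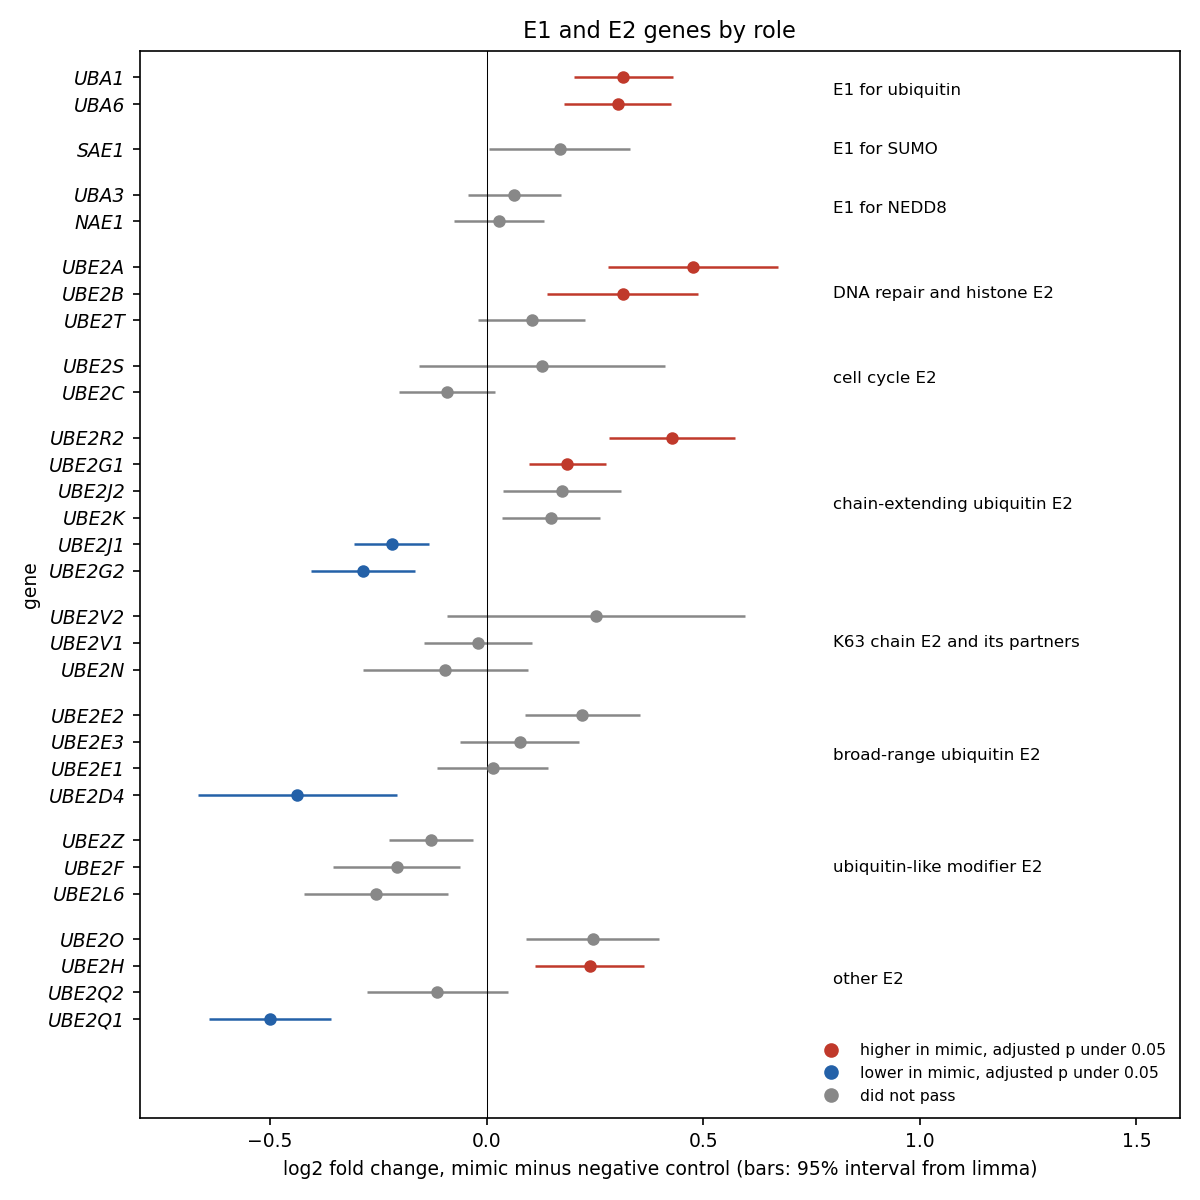
Log2 fold change (mimic minus negative control) of the 30 genes tested, in rows grouped by role, with 95% intervals from limma; red and blue mark genes that passed, higher and lower in the mimic, and grey marks those that did not. Ubiquitin E1 genes stand at 0.32 and 0.30. The E2 genes grouped as chain-extending lie on both sides, from UBE2R2 at 0.43 to UBE2G2 at -0.29.

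E2 genes grouped here as chain-extending, with those of the endoplasmic reticulum among them, changed in both directions. Of 6 such genes, 2 rose, 2 fell and 2 did not pass, and the groups of all 6 were apart. Over all protein-coding genes tested, 8.15% rose, 12.8% fell and 46.4% had groups that did not overlap. UBE2R2, a close relative of CDC34 that serves cullin-RING ligases, measured 9.04, 8.99 and 8.96 in the mimic arrays, against 8.67, 8.49 and 8.56 in the control arrays (0.43 ± 0.061 SE, 1.34-fold, limma adjusted p = 0.0062). UBE2G1, which acts beside CDC34 and UBE2R2 on cullin-RING substrates, measured 12.53, 12.57 and 12.58 in mimic and 12.35, 12.36 and 12.40 in control arrays (0.19 ± 0.037 SE, limma adjusted p = 0.0216). The groups of UBE2G1 were apart by less than those of UBE2R2. UBE2G1 missed the threshold on removal of any 1 array, with an adjusted p of 0.0542 (value 0.20) without mimic array 1 and 0.0923 (value 0.18) without mimic array 2. It also missed it with each array centred on its median (0.14, adjusted p = 0.0829). UBE2K, which builds lysine-48 chains unaided, measured 12.19, 12.14 and 12.20 in mimic and 11.95, 12.08 and 12.05 in control arrays, a difference of 0.15 that did not pass (limma adjusted p = 0.106).

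Of the E2 genes of the endoplasmic reticulum, UBE2G2 and UBE2J1 fell and UBE2J2 did not pass. UBE2G2, which works with the ligase SYVN1 on misfolded proteins, measured 8.51, 8.59 and 8.59 in the mimic arrays, against 8.86, 8.79 and 8.89 in the control arrays. It fell by 0.29 (SE 0.05, limma adjusted p = 0.0142), and every mimic array lay below every control array. The adjusted p was 0.054, 0.0515 and 0.0628 without mimic array 1, mimic array 2 and control array 3, at -0.26, -0.30 and -0.26. UBE2J1, a membrane-anchored E2 of the same pathway, measured 11.18, 11.21 and 11.20 in mimic and 11.42, 11.43 and 11.39 in control arrays. It fell by 0.22 (SE 0.036, limma adjusted p = 0.0113), with an adjusted p of 0.0502 and a value of -0.23 without mimic array 2. UBE2J2, the other membrane-anchored E2, measured 6.17, 6.19 and 6.20 in mimic and 5.97, 6.002 and 6.05 in control arrays. This difference of 0.17, with groups apart, did not pass (95% interval 0.039 to 0.31, limma adjusted p = 0.112).

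None of the genes that build lysine-63 chains passed. UBE2N, the catalytic E2, measured 7.28, 7.28 and 7.16 in mimic and 7.26, 7.48 and 7.27 in control arrays, a difference of -0.10 (95% interval -0.29 to 0.095). Its inactive partners UBE2V1 and UBE2V2, which orient the acceptor ubiquitin, differed by -0.02 (95% interval -0.14 to 0.10) and by 0.25 (95% interval -0.091 to 0.60). UBE2V2 measured 11.03, 11.10 and 10.80 in mimic and 11.01, 10.49 and 10.67 in control arrays. Control array 2 was again the lowest, and the spread of the control arrays (SD 0.264, n = 3) was as large as the difference.

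Among E2 enzymes that serve many ligases, UBE2D4 fell and 3 others did not pass. UBE2D4, a member of the UBE2D family, measured 8.36, 8.04 and 8.20 in the mimic arrays, against 8.76, 8.59 and 8.56 in the control arrays. The groups were apart, and the log2 fold change was -0.44 ± 0.096 SE, or 1.35-fold lower (limma adjusted p = 0.0329). The adjusted p was 0.0859 and 0.086 without mimic arrays 2 and 3, at -0.36 and -0.44, and 0.0831, 0.0764 and 0.0733 without control arrays 1, 2 and 3, at -0.38, -0.46 and -0.47. UBE2E2, one of 3 closely related nuclear E2 enzymes, measured 7.61, 7.65 and 7.70 in mimic and 7.45, 7.36 and 7.47 in control arrays, a difference of 0.22 just short of the threshold (limma adjusted p = 0.052). Its relatives UBE2E1 and UBE2E3 differed by 0.01 (95% interval -0.11 to 0.14) and 0.08 (95% interval -0.061 to 0.21). UBE2D1, UBE2D2, UBE2D3, UBE2L3 and UBE2W were not analysed here.

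None of the 3 E2 genes for other modifiers passed. All 3 stood lower in every mimic array than in any control array, and over all protein-coding genes tested 46.4% had groups that did not overlap in either direction. UBE2F, one of the NEDD8 E2 enzymes, measured 6.68, 6.83 and 6.70 in mimic and 6.96, 6.92 and 6.96 in control arrays, a difference of -0.21 (95% interval -0.35 to -0.061, limma adjusted p = 0.085). UBE2L6, the interferon-induced E2 for ISG15, measured 8.53, 8.45 and 8.33 in mimic and 8.66, 8.64 and 8.78 in control arrays, a difference of -0.25 (limma adjusted p = 0.0668). With each array centred on its median UBE2L6 stood at -0.30 and passed (limma adjusted p = 0.0386). UBE2Z, the E2 that takes ubiquitin or FAT10 from UBA6, measured 9.14, 9.10 and 9.13 in mimic and 9.23, 9.26 and 9.26 in control arrays, a difference of -0.13 (limma adjusted p = 0.103), whereas UBA6 itself rose. UBE2M, the other NEDD8 E2, was not analysed here.

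Within the set described here, the largest change was the fall of UBE2Q1, which carries an extended N-terminus and is little studied. The E2 genes UFC1 and ATG10, given below under other symbols, fell by more. UBE2Q1 measured 8.54, 8.50 and 8.42 in the mimic arrays, against 9.05, 8.91 and 8.998 in the control arrays. The groups were further apart than the spread within either, and the log2 fold change was -0.50 ± 0.059 SE, or 1.41-fold lower (limma adjusted p = 0.00303). Across the 13 alternative settings UBE2Q1 ran from -0.54 to -0.47 and passed in each. Its relative UBE2Q2 measured 10.17, 10.23 and 10.17 in mimic and 10.45, 10.24 and 10.22 in control arrays. These groups overlapped, and the difference was -0.11 (95% interval -0.28 to 0.048).

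UBE2H, the E2 of the CTLH ligase complex, measured 9.59, 9.59 and 9.57 in the mimic arrays, against 9.43, 9.27 and 9.34 in the control arrays (0.24 ± 0.052 SE, limma adjusted p = 0.033). The mimic arrays lay close together and above every control array. UBE2H passed without control array 1 but not without control arrays 2 and 3 (adjusted p = 0.0795 and 0.109, at 0.20 and 0.24), nor without mimic arrays 1, 2 and 3 (0.102, 0.114 and 0.0779, at 0.24, 0.23 and 0.25), nor with each array centred on its median (0.20, adjusted p = 0.0939). UBE2O, a large enzyme that combines E2 and E3 activity, measured 6.08, 6.14 and 6.15 in mimic and 5.81, 5.93 and 5.90 in control arrays, a difference of 0.25 that did not pass (limma adjusted p = 0.0585). UBE2U and UBE2QL1 lay below the filter on low signal and were not tested. UBE2U averaged 3.26 ± 0.0756 in mimic and 3.16 ± 0.159 in control arrays, and UBE2QL1 averaged 3.56 ± 0.141 in mimic and 3.33 ± 0.0462 in control arrays (SD, n = 3 each).

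**Figure D3:**
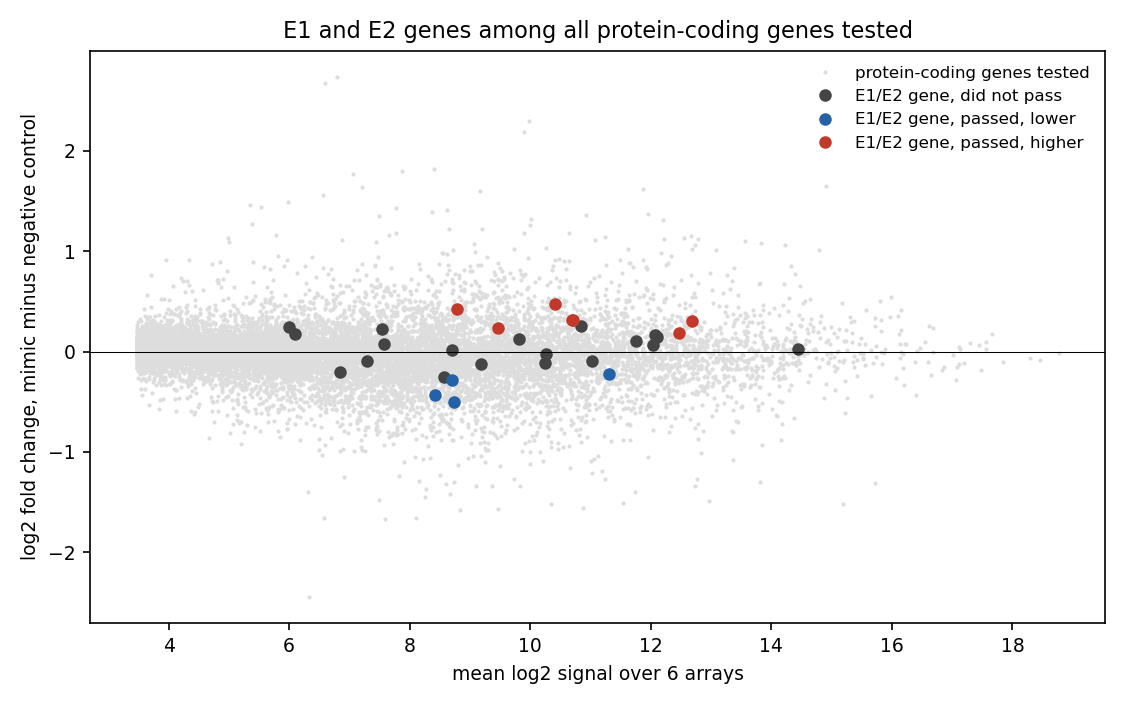
Log2 fold change (mimic minus negative control) against mean log2 signal over the 6 arrays, for 14878 protein-coding genes (grey) and the 30 E1 and E2 genes tested (coloured by whether they passed). The E1 and E2 genes lie between -0.50 and 0.48, well inside the range of all genes, which runs from -2.44 to 2.74.

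Close relatives were set against each other by the difference between their changes within each array, over 8 pairs named by family. With 3 arrays against 3, an exact two-sided permutation test cannot go below a p of 0.1, so none could pass. The change of UBE2G1 exceeded that of UBE2G2 by 0.47, that of UBE2J2 exceeded that of UBE2J1 by 0.39, and that of UBE2Q2 exceeded that of UBE2Q1 by 0.39. In these 3 pairs the within-array differences of the groups did not overlap, and each had the smallest exact permutation p of 0.1 (0.16 after adjustment over the 8 pairs). The same held for UBE2E2 over UBE2E1 (0.21) and UBE2E2 over UBE2E3 (0.14). For UBE2G1 with UBE2G2 and for UBE2J2 with UBE2J1, this outcome was fixed beforehand, since each gene's groups were already apart, in opposite directions. In those pairs it adds nothing to the values of the single genes. UBE2A over UBE2B (0.16) and UBE2V2 over UBE2V1 (0.27) had an exact permutation p of 0.2, with overlapping groups. UBA1 and UBA6 differed in their change by 0.01, less than the spread of their difference within the mimic arrays (SD 0.133, n = 3).

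For the genes that rose in every setting or nearly so, promoters were examined as RefSeq gives them on GRCh38.p14, from 250 bases before to 50 bases after the gene start. The 3 below are shown because these genes kept their rise in at least 12 of the 13 settings and have an entry; capitals mark TGACG, the core bound by ATF and CREB factors, and ACGTG, the core bound by hypoxia-inducible factors, on either strand. In UBA1 the matches to ACGTG on the strands overlap in the palindrome CACGTG, and UBA6 holds 3 matches to TGACG. UBA1 lies at chrX:47190597-47190896 on the plus strand, UBA6 at chr4:67701106-67701405 on the minus strand, and UBE2R2 at chr9:33816910-33817209 on the plus strand.
UBA1: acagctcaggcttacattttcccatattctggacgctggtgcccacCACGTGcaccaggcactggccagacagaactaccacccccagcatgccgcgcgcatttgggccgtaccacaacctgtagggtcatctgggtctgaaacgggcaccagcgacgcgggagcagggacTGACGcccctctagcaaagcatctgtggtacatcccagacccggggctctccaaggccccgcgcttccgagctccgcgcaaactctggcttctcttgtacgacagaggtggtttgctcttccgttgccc
UBA6: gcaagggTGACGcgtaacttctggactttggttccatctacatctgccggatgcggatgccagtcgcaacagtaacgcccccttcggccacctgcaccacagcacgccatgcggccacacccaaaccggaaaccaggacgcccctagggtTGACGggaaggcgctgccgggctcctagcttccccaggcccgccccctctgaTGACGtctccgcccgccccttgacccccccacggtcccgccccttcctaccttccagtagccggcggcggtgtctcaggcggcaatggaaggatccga
UBE2R2: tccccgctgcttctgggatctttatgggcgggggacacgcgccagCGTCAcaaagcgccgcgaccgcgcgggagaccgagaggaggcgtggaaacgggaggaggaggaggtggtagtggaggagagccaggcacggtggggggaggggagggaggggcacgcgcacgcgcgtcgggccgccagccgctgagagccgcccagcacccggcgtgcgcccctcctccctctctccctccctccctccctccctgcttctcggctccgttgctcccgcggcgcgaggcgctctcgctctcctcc

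These letters were common in promoters generally. TGACG occurred in 11 of 26 E1 and E2 promoters with an entry, in 3 of the 5 whose genes rose and 1 of the 3 whose genes fell, beside 29.48% of 15843 protein-coding promoters. ACGTG occurred in 5 of the 26, of which 1 belongs to a gene that rose and 1 to a gene that fell, beside 23.71% of all. The longer TGACGTCA, which contains TGACG, was present in 1 of the 26 (UBE2S) and 2.59% of all. TGACNNNGC, the antioxidant response element bound by NRF2, was present in 3 (UBE2J1, UBE2K and UBE2Q2) and 14.29% of all. TGATGCAA, the amino acid response element bound by ATF4, was present in 0 and 0.67% of all. The E1 and E2 promoters had a median G and C content of 69.2%, beside 62.7% for all. Its part in these counts was not tested. A match is a description of letters and not a binding site.

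Other genes of the pathway are given from lists by role. Counts of each list stand beside 8.15% that rose and 12.8% that fell over all protein-coding genes tested. Among the 7668 at least as bright as the dimmest E1 or E2 gene tested, these shares were 14.3% and 22.6%. Among modifiers, 1 of 13 genes tested rose, 1 fell and 11 were not called, with a median of -0.01. SUMO3 measured 7.80, 7.74 and 7.63 in mimic and 8.46, 8.22 and 8.22 in control arrays, a fall of 0.58 (SE 0.085, limma adjusted p = 0.0072). SUMO2 (-0.16), NEDD8 (-0.10), UBB (0.11) and ISG15 (-0.01) did not pass, and MAP1LC3B, a ubiquitin-like protein of autophagosomes, rose by 1.07. Among E1 and E2 enzymes with other symbols, 2 of 10 rose, 2 fell and 6 did not pass. CDC34, the closest relative of UBE2R2, measured 6.70, 6.51 and 6.68 in mimic and 6.13, 6.02 and 6.28 in control arrays, a rise of 0.49 (SE 0.092, limma adjusted p = 0.019). It no longer passed without mimic arrays 1 and 3 (adjusted p = 0.0722 and 0.0626, at 0.45 and 0.46) or control arrays 1 and 2 (0.0559 and 0.0545, at 0.48 and 0.42). BIRC6, a giant E2 and E3 enzyme that inhibits apoptosis, rose by 0.27, whereas the UFM1 E2 UFC1 fell by 0.78 and the ATG12 E2 ATG10 by 0.53.

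The ligases that work with RAD6 and other repair E2 enzymes moved both ways. Of 17 tested, 6 rose, 5 fell and 6 did not pass, with a median of 0.11. The shares over all protein-coding genes tested were 8.15% for rises and 12.8% for falls. The UBR-box ligase UBR4 rose by 0.70, the p53 ligase MDM2 by 0.51 and the HECT ligase HUWE1 by 0.35, all partners of broad or RAD6 E2 enzymes. BRCA1 fell by 0.54, its partner BARD1 by 0.50 and FANCL, the ligase of UBE2T, by 0.39. RAD18 (-0.04), RNF20 (-0.04) and RNF40 (0.22), the ligases through which UBE2A and UBE2B act on PCNA and histone H2B, did not pass. Of 16 genes of the APC/C (subunits, activators and the inhibitor FBXO5), 2 rose, 6 fell and 8 did not pass, with a median of -0.11. FBXO5 is among those that fell, and UBE2C and UBE2S did not pass. The subunits CDC26 and ANAPC4 fell by 0.56 and 0.47 and the APC/C inhibitor FBXO5 by 0.43, the last with adjusted p of 0.07, 0.0737, 0.0549 and 0.0585 without mimic arrays 1 and 2 and control arrays 1 and 3. The activators FZR1 and CDC20 rose by 0.31 and 0.18. CDC20 missed the threshold on removal of any 1 array (adjusted p between 0.0811, without control array 2, and 0.149, without control array 3), and FZR1 passed only without control array 1 among the single arrays (adjusted p = 0.0879, 0.133 and 0.0934 without mimic arrays 1, 2 and 3, and 0.0885 and 0.101 without control arrays 2 and 3).

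Of 31 cullin-RING and neddylation genes, 5 rose, 2 fell and 24 were not called, with a median of 0.01. The shares over all protein-coding genes tested were 8.15% for rises and 12.8% for falls. The scaffold CUL3 rose by 0.40 and the COP9 signalosome subunits COPS2 and GPS1 by 0.35 and 0.32, whereas the signalosome subunit COPS3 fell by 0.88 and the scaffold CUL1 by 0.18. GPS1 had adjusted p of 0.0735, 0.0622, 0.0601 and 0.0805 without mimic arrays 1 and 3 and control arrays 1 and 3. CUL1 had adjusted p of 0.129, 0.156, 0.0714, 0.112 and 0.152 without mimic arrays 1 and 2 and control arrays 1, 2 and 3. Of 16 SUMO ligases and proteases, 1 rose (RNF111, 0.26), 1 fell (SENP1, -0.35) and 14 did not pass. RNF111 passed without mimic array 1 but had adjusted p of 0.0803 and 0.0558 without mimic arrays 2 and 3 and 0.0599, 0.0614 and 0.0766 without control arrays 1, 2 and 3.

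Of 9 ligases and channel proteins of endoplasmic reticulum quality control, 2 rose, 1 fell and 6 did not pass, with a median of -0.01. The shares over all protein-coding genes tested were 8.15% for rises and 12.8% for falls. SYVN1, a ligase that works with UBE2G2 and UBE2J1, rose by 0.42 while both E2 genes fell, and the retrotranslocation factor DERL2 fell by 0.84. AUP1, which recruits UBE2G2 to the membrane, rose by 0.20, with adjusted p of 0.127 and 0.145 without mimic arrays 1 and 2 and 0.0996, 0.101 and 0.108 without control arrays 1, 2 and 3. Of 29 RBR and HECT ligases and their relatives, 7 rose, 4 fell and 18 did not pass, with a median of 0.05. The chain-extending ligase UBE4B rose by 0.87 and the HECT ligases NEDD4 and WWP2 by 0.69 and 0.42, while AREL1 fell by 0.46 and RNF14 by 0.32. RNF144B fell by 0.23, with adjusted p of 0.11, 0.144 and 0.109 without mimic arrays 1, 2 and 3 and 0.104 and 0.136 without control arrays 2 and 3. Of 3 genes of the ISG15 pathway tested, the ISG15 protease USP18 fell by 0.51 (limma adjusted p = 0.00383). The other 2 did not pass, and neither did UBE2L6, at -0.25. ISG15 itself differed by -0.01 and averaged 3.76 in mimic and 3.77 in control arrays, near the filter on low signal at 3.469.

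**Figure D4:**
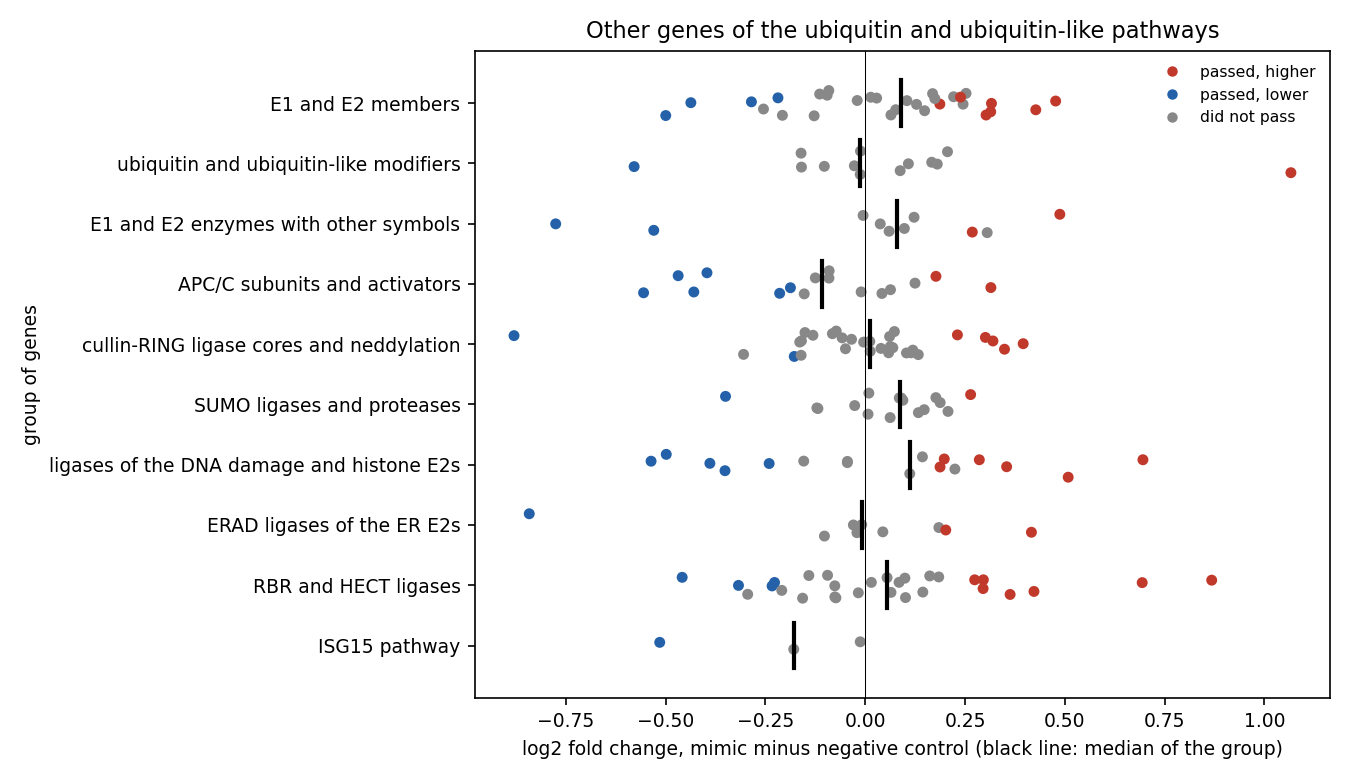
Log2 fold change (mimic minus negative control) of each gene tested in the E1 and E2 set and 9 other lists of the pathway; red and blue points passed, grey did not, and black lines are medians. Medians lie between -0.18 (ISG15 pathway, 3 genes) and 0.11 (ligases of DNA damage and histone E2 enzymes), and genes that passed lie on both sides of 0 in all but the ISG15 list.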

How the data were processed

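Total RNA (100 ng per sample) had been amplified, labelled with biotin and hybridised to Affymetrix arrays, 1 per sample, per the labels' protocols. The authors deposited 1 normalized value per probe set and array, taken here as log2 intensities from their range, since the log base is inferred from the values and not stated. MAS5 is the tool named in the submitters' processing notes, with no role or version; how probes were summarized, and on which build, is not given in the sources used here. Depth does not apply to arrays, and precision is limited by having 3 of them per group.

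The table holds 70523 probe sets. Without its 2995 control sets, 67528 remained, of which 23781 had 1 gene symbol in the platform annotation, 1543 had several and 42204 had none. Symbols were updated through RefSeq for 23471. The 25% of probe sets with the lowest mean (under 3.469) were not tested, leaving 50646. Mimic and control arrays entered 1 fit of limma 3.58.1, run in R 4.3.3 (lmFit, then eBayes with a mean-variance trend), with Benjamini-Hochberg adjustment over all 50646 and a threshold of 0.05. The steps were tested on simulated data. The probe set with the highest mean over the 6 arrays stood for each gene. Figures used Python 3.11.15 and matplotlib 3.10.9.

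The members, lists, motifs and tests were chosen with earlier results of these data known. All E1 and E2 genes may be named. Of each pathway list, up to 3 highest and 3 lowest changes among the genes that passed were named; UBB, SUMO2, NEDD8, ISG15, RAD18, RNF20 and RNF40 fall outside this rule and were chosen after their values were seen. Alternatives were median centring, quantile normalization, other filters, no trend, a replicate block, the mean of each gene's probe sets and leaving out each array.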

Additional observations from a re-analysis of the deposited data

How the results depend on the processing

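None of the 11 called genes changed direction in any of the 13 alternatives, and 3 of the 11 calls (UBA1, UBE2R2 and UBE2Q1) were kept in all of them. In place of 7 genes that rose and 4 that fell, there were 4 and 5 with each array centred on its median, 4 and 4 without the mean-variance trend, 8 and 4 after quantile normalization, 6 and 4 with no filter on low signal, and 9 and 5 with a stricter filter on low signal. Leaving out 1 array gave 2 to 5 that rose and 1 to 3 that fell, and over all probe sets 1408 to 2241 that rose and 2051 to 2643 that fell, in place of 2413 and 3372; these fits have fewer samples. With a replicate block 5 genes rose and 4 fell (1969 and 2547 over all probe sets), and UBE2G1 (adjusted p = 0.0603) and UBE2H (0.0707) no longer passed in limma. Deviations of same-numbered arrays correlated at 0.142, -0.0497 and 0.182, and not every array correlated best with its own number, so the numbers were not taken to pair the samples. UBE2E2, UBE2L6 and UBE2O passed in at least 1 alternative (limma adjusted p = 0.0363, 0.0472 and 0.043 with the stricter filter). Of the genes that were not called, NAE1 stood at -0.01 after median centring and -0.03 after quantile normalization in place of 0.03. UBE2E1 stood at -0.03 after median centring and -0.02 without mimic array 3 in place of 0.01. UBE2V1, at -0.02, had a highest value of 0.0083, without mimic array 1, and also stood above 0 without control array 3. Causes of these changes were not tested.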

Other observations

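Pseudogenes and antisense transcripts of E2 genes were left out of the 32 genes above. UBE2MP1, a transcribed pseudogene of the NEDD8 E2 gene UBE2M, measured 8.43, 8.22 and 8.71 in the mimic arrays, against 7.76, 7.60 and 7.99 in the control arrays. Every mimic array lay above every control array, and the log2 fold change was 0.67 ± 0.149 SE (limma adjusted p = 0.0334). The adjusted p missed the threshold without mimic arrays 1 and 3 (0.0961 and 0.069) and control arrays 1 and 2 (0.0857 and 0.0959), and was 0.0343 without mimic array 2. Its probes may also detect UBE2M, so the value is uncertain. The pseudogenes UBE2NL (0.12), UBE2DNL (-0.07), UBE2Q2P1 (0.01) and UBE2Q2P16 (-0.10) and the antisense transcript UBE2E1-AS1 (-0.10) did not pass.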
